A study of Homo sapiens with 14 samples.

Results

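The libraries described here are the controls of KYSE510, an established line of esophageal squamous cell carcinoma, in 2 separately normalized expression tables. All of them carry the treatment label siNC and were harvested 48 h after siRNA transfection. Of 14 samples in the series, 12 are RNA libraries and 4 of these are siNC: 2 in the table that also holds 4 libraries with siRNAs against EZH2 (siEZH2-1 and siEZH2-2), and 2 in the table that also holds 4 libraries with siRNAs against LAT1 (siLAT1-2 and siLAT1-3). These pairs are called the EZH2 pair and the LAT1 pair below. Both pairs bear the same label for line, cell type and treatment, so a comparison of them shows how far 1 nominal baseline differs between experiments. Values are FPKM, a read level scaled by gene length and library depth, for the same 63677 genes in both tables. Nothing in the labels says whether the libraries of a pair came from separate cultures.

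Squamous epithelium is built on a basal layer whose cells make keratins 5 and 14, are held together by desmosomes and are specified by the transcription factors p63 (TP63) and SOX2. Upper layers replace the basal keratins with others and switch on genes of the cornified envelope. Squamous carcinomas of the esophagus keep much of the basal programme, often gain the chromosome segment that holds the cyclin D1 gene, and often activate NRF2, the factor that drives genes of glutathione and NADPH metabolism.

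The pairs stood apart from each other far more than the libraries within a pair. Across the 11724 genes whose mean over the 4 libraries was 1 FPKM or higher, log2(FPKM + 1) correlated at r = 0.995 between the EZH2 libraries and 0.994 between the LAT1 libraries, but at 0.886 to 0.89 between a library of one pair and a library of the other. The SD of the log2 difference per gene was 0.174 and 0.168 within the pairs and 0.76 between the pair means. Columns summed to between 251457 and 263852 FPKM, and between 11465 and 11715 genes stood at 1 FPKM or more in each library. Depth, estimated from the steps between low values of short genes, was 23760000 and 23360000 reads or fragments in the EZH2 pair and 16340000 and 13580000 in the LAT1 pair. Because the tables were normalized apart, no test was run between the pairs. With 2 libraries against 2, an exact permutation test could not give a p under 0.33.

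The squamous identity of the line was read in both pairs. All 14 squamous epithelial markers on the list stood at 1 FPKM or more in each of the 4 libraries, and their summed level was 825 and 880 FPKM in the EZH2 pair and 896 and 891 FPKM in the LAT1 pair. KRT5 (ENSG00000186081), the basal keratin, was at 494 and 538 FPKM in the EZH2 pair and 508 and 502 FPKM in the LAT1 pair, at ranks 41, 41, 38 and 40 among all genes. TP63 was at 35.7 and 32.8 FPKM against 36.1 and 35.7 FPKM. For KRT5 and TP63 the pairs overlapped. KRT5 was the largest part of each sum, and not all 14 markers were alike between the pairs. KRT17 and KRT6A were at least 2-fold higher in the LAT1 pair. PKP1 was lower there, at 31.9 and 31.4 FPKM against 7.93 and 7.67 FPKM. KRT8 and KRT18, the keratin partners of simple epithelium that many carcinomas also make, were at 407, 447, 368 and 382 FPKM and at 85.9, 95.8, 97.4 and 97.9 FPKM in the same order of libraries.

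Markers of other cell types were mostly under 1 FPKM. Each of the 12 columnar gut markers was under 1 FPKM in all 4 libraries, and the highest, MUC2, averaged 0.0375 FPKM. Of 11 fibroblast markers only COL1A1 reached 1 FPKM in any library (0.94 and 1.12 FPKM in the EZH2 pair, 1.94 and 1.62 FPKM in the LAT1 pair), while COL1A2 was at 0, 0, 0 and 0.01 FPKM. CSF1R alone of 17 immune markers reached 1 FPKM, and PTPRC, the pan-leukocyte phosphatase, was at 0.01 FPKM or less throughout. MITF, a melanocyte factor, was at 1.44 and 1.13 FPKM against 2.48 and 2.47 FPKM, and CDH5, the endothelial cadherin, at 0.02 and 0.02 FPKM against 1.10 and 0.97 FPKM. The summed level of the fibroblast list was 1.16 and 1.31 FPKM against 3.46 and 2.85 FPKM, of the endothelial list 0.08 and 0.12 FPKM against 1.53 and 1.28 FPKM, and of the neuroendocrine and melanocyte list 2.28 and 2.14 FPKM against 3.69 and 3.65 FPKM. These sums were higher in the LAT1 pair and small beside the squamous sum. In bulk RNA, fewer cells of a type and less RNA per cell cannot be told apart.

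Mitochondrial transcripts were among the most abundant. MT-CO2, a cytochrome oxidase subunit, was at ranks 3, 2, 3 and 2, and transcripts named MT- made up 7.04% to 8.43% of the summed FPKM of a library. Outside mitochondrial, ribosomal protein and short RNA genes, the 20 genes of highest mean log2 level were led by FTL, TMSB10, GAPDH, HSP90AB1 and ACTB. GAPDH was at 979 and 1037 FPKM in the EZH2 pair and 1118 and 1123 FPKM in the LAT1 pair. ACTB was at 1197 and 1280 FPKM against 848 and 843 FPKM, and EEF2, the translation elongation factor, at 927 and 990 FPKM against 699.7 and 708 FPKM. The top 100 genes by pair mean had 80 in common, and the top 1000 had 815 in common.

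FTL (ENSG00000087086), the light chain of the iron store ferritin, differed most between the pairs among the 20 genes just described. It was at 596 and 671 FPKM in the EZH2 pair, at ranks 34 and 30, and at 4643 and 4617 FPKM in the LAT1 pair, at ranks 2 and 1. The LAT1 mean was 7.31-fold the EZH2 mean, and the pairs did not overlap. FTL has many processed pseudogenes, and how the counting shared reads among them is not stated.

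The target genes of the 2 experiments were unequally alike between the pairs. EZH2, the catalytic subunit of Polycomb repressive complex 2, was at 17.1 and 17.1 FPKM in the EZH2 pair and 17.7 and 18.04 FPKM in the LAT1 pair, a difference of 0.06 in log2(FPKM + 1). SLC7A5, which encodes LAT1, was at 733 and 777 FPKM, ranks 22 and 23, against 407 and 413 FPKM, rank 55 in both. Its LAT1-pair mean was 54.3% of its EZH2-pair mean, a log2 difference of -0.88. SLC3A2, the heavy chain that LAT1 binds, was at 189 and 209 FPKM against 128 and 133 FPKM. Both carrier genes were thus higher in each EZH2 library than in either LAT1 library, by less than 2-fold.

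**Figure D1:**
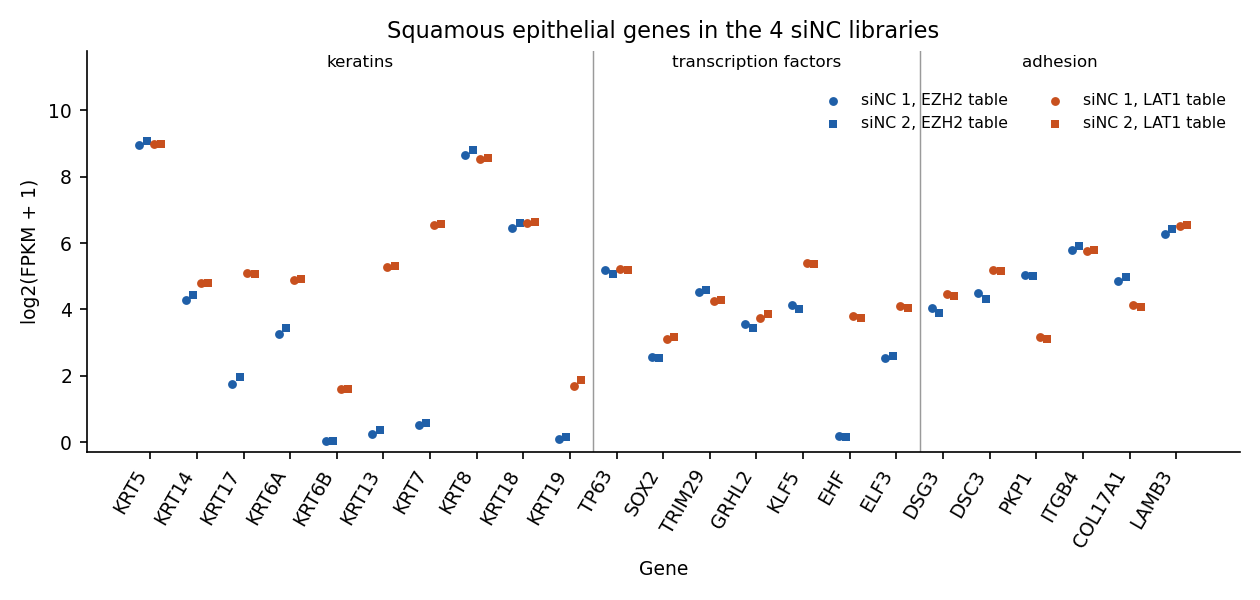
Level of 23 squamous epithelial genes as log2(FPKM + 1) in each of the 4 siNC libraries; circles and squares are replicates 1 and 2, blue the EZH2 table and orange the LAT1 table. KRT5, KRT8, KRT18 and TP63 lie at like levels in all 4 libraries, while KRT7, KRT13, KRT17 and EHF lie higher and PKP1 lower in the LAT1 pair.

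Genes were then listed as differing between the pairs when their pair means of log2(FPKM + 1) were at least 1 apart, which is 2-fold on that scale, and both libraries of one pair lay above both of the other. By that rule 752 of 11724 genes (6.41%) were higher and 404 (3.45%) lower in the LAT1 pair, 1156 (9.86%) in all. Within a pair, 36 genes (0.307%) of the EZH2 pair and 52 (0.444%) of the LAT1 pair lay 2-fold apart. Without a size limit, most genes separated the pairs: 4088 (34.9%) were higher and 5909 (50.4%) lower in both LAT1 libraries. The median difference over all 11724 genes was -0.11. With differences centred on that median, 889 were higher and 274 lower, so the higher genes made up 76.4% of those listed in place of 65.1%. With a pseudocount of 0.1 in place of 1, 988 were higher and 769 lower, a share of 56.2%.

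A gene that passes the filter through 1 pair alone is higher in that pair because of the filter, though not always by 2-fold. Of the 752 higher genes, 399 had an EZH2-pair mean under 1 FPKM, and of the 404 lower genes, 80 had a LAT1-pair mean under 1 FPKM. Both pairs were at 1 FPKM or more for 353 higher and 324 lower genes. Both directions also differed in size: 295 genes were higher by at least 2 log2 units and 10 lower by as much, 115 were higher by at least 3 and 0 lower by as much. The lowest difference was -2.47 and the highest 8.81.

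**Figure D2:**
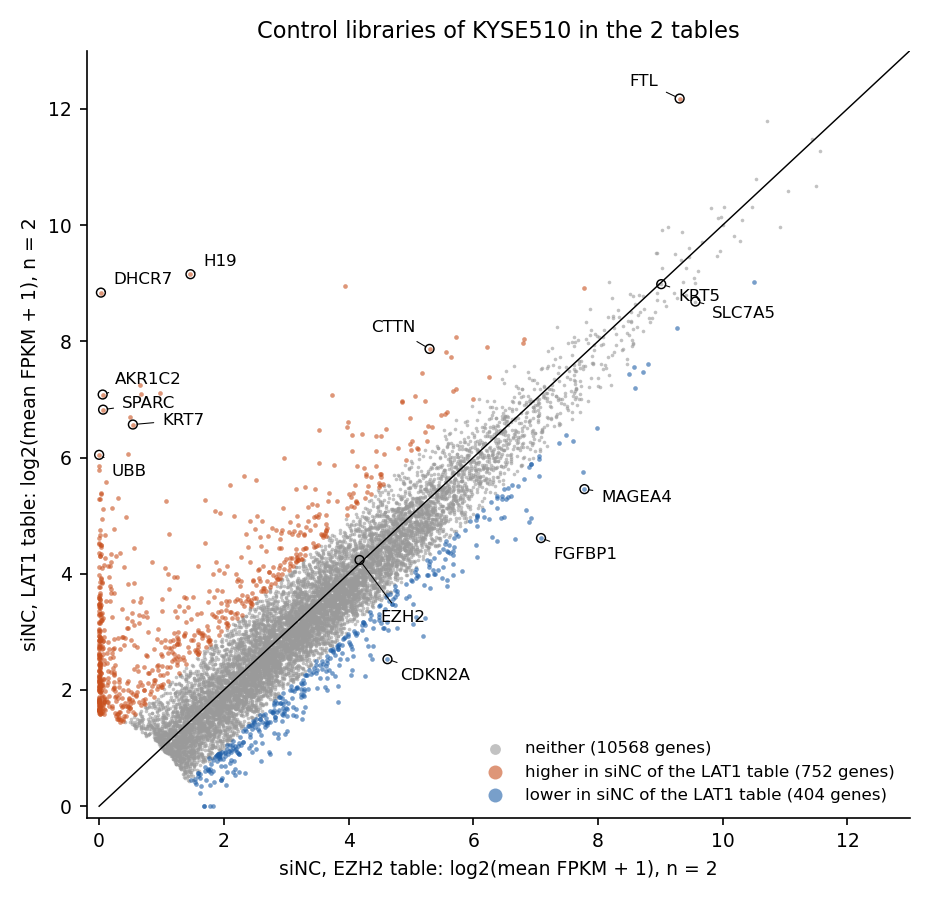
Mean level of each of 11724 genes in the EZH2 pair (x axis) and the LAT1 pair (y axis), both as log2(mean FPKM + 1) with n = 2 libraries; the line marks equal levels. Genes near 0 on the x axis reach up to DHCR7 near the top left, while no comparably abundant gene of the EZH2 pair lies at 0 on the y axis.

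The asymmetry was clearest for genes listed at or near 0 in one pair. Without read counts, a listed 0 is not evidence of absence. At least 5 FPKM in both LAT1 libraries together with at most 0.1 FPKM in both EZH2 libraries was met by 97 of 63677 genes (0.152%). The reverse was met by 0 genes. With a limit of 1 FPKM in place of 5, 328 genes met the first condition and 14 the reverse, and 11 of those 14 are short RNAs by name. Of the 97, 92 are protein coding and 37 were listed at 0 in both EZH2 libraries, which are the deeper ones by the estimate above. All 97 were also at 1 FPKM or less in the 4 siEZH2 libraries and at 1 FPKM or more in the 4 siLAT1 libraries.

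The same asymmetry held for the extent of the lower level. Among 4703 protein-coding genes at 10 FPKM or more in the EZH2 pair, the lowest relative level in the LAT1 pair was 17.4%, for FGFBP1, and 4 genes were under 20% and 0 under 10%. Among 4624 such genes of the LAT1 pair, 116 were under 20% in the EZH2 pair, 89 under 10% and 63 under 1%. Coding genes at 10 FPKM or more in the EZH2 pair were therefore all read in the LAT1 pair, and the converse did not hold.

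**Figure D3:**
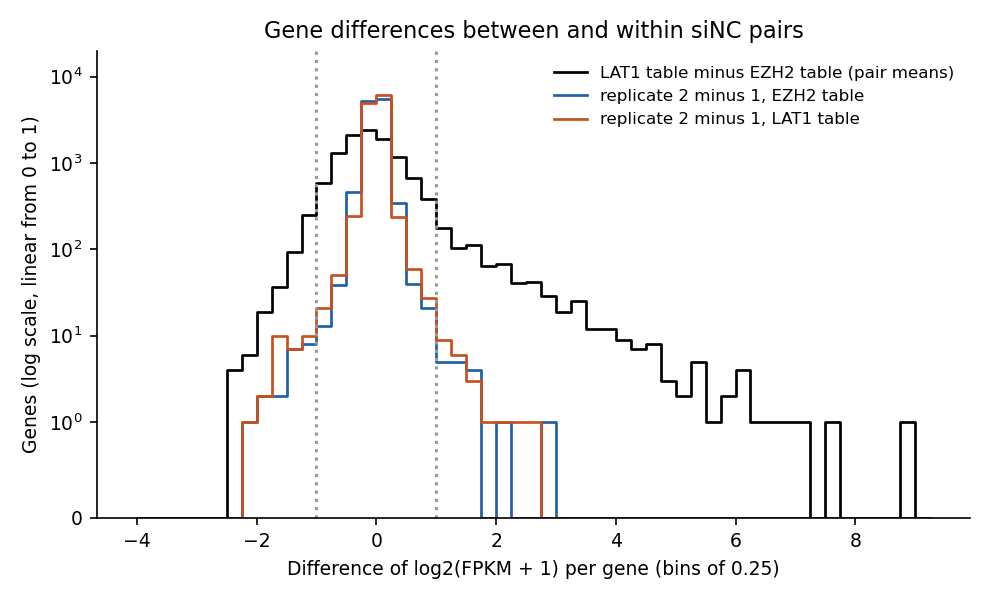
Number of genes (log scale) by difference in log2(FPKM + 1): LAT1 pair minus EZH2 pair in black, replicate 2 minus 1 of each pair in colour; dotted lines mark 2-fold. The black curve ends at -2.47 on the left and at 8.81 on the right, and the within-pair curves are narrow around 0.

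Among the 12 largest higher genes, DHCR7 (ENSG00000172893), the reductase of the last step of cholesterol synthesis, was at 0.04 and 0 FPKM in the EZH2 pair and 451 and 463 FPKM in the LAT1 pair, where it ranked 45 and 44. H19 (ENSG00000130600), an imprinted long noncoding RNA, was at 1.65 and 1.87 FPKM against 599 and 539 FPKM, a 323-fold difference of pair means. DHCR7 was barely read and H19 was low in the EZH2 pair, and both were among the 50 highest genes of the LAT1 pair. AKR1C2, a steroid and aldehyde reductase, was at 0.04 and 0.04 FPKM against 138 and 131 FPKM. SPARC, a secreted matrix protein, was at 0.05 and 0.04 FPKM against 112 and 113 FPKM. IGFBP3, which binds insulin-like growth factors, was at 0.59 and 0.60 FPKM against 145 and 126 FPKM. In none of these did the pairs come near each other.

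AKR1B10, TGFBI, GPX2 and KRT7 had EZH2-pair levels between 0.39 and 1.07 FPKM and LAT1-pair levels between 92.3 and 155 FPKM. UBB, a gene for ubiquitin chains, was listed at 0 in both EZH2 libraries and at 66.2 and 64.0 FPKM in the LAT1 pair. RPS27A, another ubiquitin gene, was read in both, at 162 and 173 FPKM against 210 and 214 FPKM (it was looked up after UBB was seen). Cells of most kinds make UBB, so its 0 too is given only as listed. WBP5 and the noncoding RP11-660L16.2, also listed at 0 in the EZH2 pair, were at 57.3 and 56.6 FPKM and at 54.4 and 53.4 FPKM in the LAT1 pair.

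Promoter sequence was set beside the genes listed at or near 0 in the EZH2 pair. As background, CG dinucleotides are the sites of DNA methylation and mark most promoters of widely expressed genes. Among these genes, 4 that show the range were chosen after their values were seen. Each line gives the 250 bases before the start site farthest upstream, from RefSeq on GRCh38.p14, 5′ to 3′ on the gene's strand, with every CG in capitals.
UBB, chr17:16381040-16381289, plus strand: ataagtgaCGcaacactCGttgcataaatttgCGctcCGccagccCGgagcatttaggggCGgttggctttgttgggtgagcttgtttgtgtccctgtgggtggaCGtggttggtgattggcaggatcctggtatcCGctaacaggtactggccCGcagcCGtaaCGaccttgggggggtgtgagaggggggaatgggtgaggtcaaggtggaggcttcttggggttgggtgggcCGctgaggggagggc
TXNIP, chr1:145996580-145996829, minus strand: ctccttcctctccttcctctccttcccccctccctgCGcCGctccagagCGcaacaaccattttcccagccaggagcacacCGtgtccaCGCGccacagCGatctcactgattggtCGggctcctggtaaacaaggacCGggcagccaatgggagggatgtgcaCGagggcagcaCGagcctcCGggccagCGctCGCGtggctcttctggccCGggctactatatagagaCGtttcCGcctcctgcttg
HTATIP2, chr11:20363464-20363713, plus strand: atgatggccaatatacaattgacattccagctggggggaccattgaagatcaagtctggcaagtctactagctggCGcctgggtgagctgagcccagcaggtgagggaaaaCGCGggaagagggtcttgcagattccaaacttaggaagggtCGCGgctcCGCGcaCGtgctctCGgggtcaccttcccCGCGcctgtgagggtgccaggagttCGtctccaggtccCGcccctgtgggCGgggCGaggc
SERPINB3, chr18:63661894-63662143, minus strand: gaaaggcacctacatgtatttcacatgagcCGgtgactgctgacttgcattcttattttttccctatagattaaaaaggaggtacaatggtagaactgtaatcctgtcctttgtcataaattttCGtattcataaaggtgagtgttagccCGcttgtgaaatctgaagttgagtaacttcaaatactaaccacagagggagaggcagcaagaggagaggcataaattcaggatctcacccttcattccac
The window of UBB holds 12 CG, that of TXNIP 18, that of HTATIP2 15 and that of SERPINB3 3. TXNIP, an arrestin-like protein that binds thioredoxin, was listed at 0 and 0 FPKM against 38.7 and 37.8 FPKM. HTATIP2, a short-chain reductase, was listed at 0 and 0 FPKM against 19.2 and 19.6 FPKM, and SERPINB3, a squamous cell carcinoma antigen, at 0 and 0 FPKM against 22.3 and 21.9 FPKM. These genes thus had promoters both rich and poor in CG.

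RefSeq gave a promoter for 68 of the 92 coding genes in that set, with a median of 17.5 CG per window. At least 10 CG were in 49 of them (72.1%). The share was 91.1% of 5246 windows for coding genes at 5 FPKM or more in all 4 libraries, and 42.3% of 6308 windows for those at 0.1 FPKM or less in all 4. At most 3 CG were in 17.6%, 2.73% and 34.8% of the same sets. By both shares the set lay between the genes at 5 FPKM or more in all 4 libraries and those at 0.1 FPKM or less in all 4. Methylation was not measured in these libraries.

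The 12 largest differences on the lower side were smaller, and all 12 genes were read in the LAT1 pair. FGFBP1 (ENSG00000137440), which releases fibroblast growth factors from matrix, was at 134 and 136 FPKM in the EZH2 pair and 22.8 and 24.1 FPKM in the LAT1 pair, a 5.74-fold difference. MAGEA4, a cancer-testis antigen, was at 219.6 and 219 FPKM against 43.9 and 41.9 FPKM. CDKN2A, the locus of the cell cycle inhibitor p16, was at 22.1 and 25.2 FPKM against 5.01 and 4.54 FPKM, and CCND2, which encodes cyclin D2, at 101 and 101 FPKM against 22.7 and 23.5 FPKM. SLC38A5, a glutamine carrier, was at 33.4 and 37.6 FPKM against 6.58 and 6.58 FPKM. In each of these genes the EZH2 pair was 4.37-fold to 5.74-fold the LAT1 pair.

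ZNF787, FST (follistatin, an activin antagonist), DKK3, MT1E (a metallothionein) and PKP1 (a desmosomal plaque protein) were 3.998-fold to 5.33-fold higher in the EZH2 pair. RN7SL1 and RN7SL2, the RNA of the signal recognition particle, completed the 12. RN7SL2 was at 203 and 229.98 FPKM against 27.9 and 77.2 FPKM, so its LAT1 libraries themselves lay more than 2-fold apart. These 2 genes are near copies, and their shares of reads are uncertain.

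Most listed genes also separated the knockdown libraries of the tables. All 6 libraries of the LAT1 table lay above all 6 of the EZH2 table for 2408 genes (20.5%), and below for 3483 (29.7%). Of the 752 genes higher in siNC of the LAT1 table, 736 (97.9%) separated all 12 libraries in that direction, as did 366 (90.6%) of the 404 lower genes. DHCR7 was at 0.05 FPKM or less in the 4 siEZH2 libraries and at 388 to 489 FPKM in the 4 siLAT1 libraries. UBB was listed at 0 in all 4 siEZH2 libraries and at 56.7 to 69.4 FPKM with siLAT1. Most of the listed differences thus also held between the siRNA libraries of the tables, but 38 of the 404 lower genes did not separate all 12 libraries. Nor did SLC7A5 and SLC3A2, of which SLC7A5 is the gene targeted in the LAT1 table. Culture, library preparation, sequencing and processing of a table cannot be told apart from its cells in this design.

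**Figure D4:**
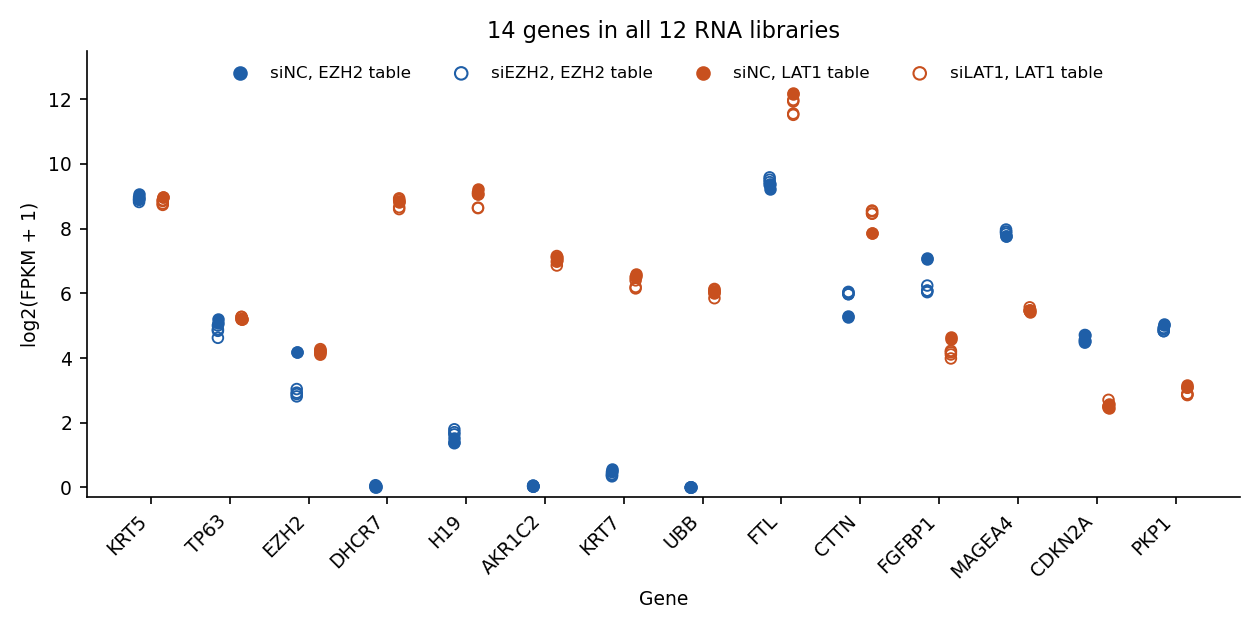
Levels of 14 genes as log2(FPKM + 1) in all 12 RNA libraries, filled for siNC and open for siRNA libraries, blue for the EZH2 table and orange for the LAT1 table. KRT5 and TP63 are at like levels in the siNC libraries. TP63 is at 23.71 to 31.15 FPKM in the siEZH2 libraries and at 35.69 to 37.79 FPKM in the siLAT1 libraries. DHCR7, H19, AKR1C2, KRT7, UBB, FTL and CTTN are higher in all 6 LAT1-table libraries and FGFBP1, MAGEA4, CDKN2A and PKP1 lower.

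By gene group, each count is set beside the shares of all 11724 genes, 6.41% higher and 3.45% lower. Higher members with an EZH2-pair mean under 1 FPKM, which tend to pass the filter through the LAT1 pair, are counted apart. So are lower members with a LAT1-pair mean under 1 FPKM, where there were any. Of 28 keratins, 14 passed the filter, and 6 (42.9%) were higher and 0 lower in the LAT1 pair, 4 of the 6 from under 1 FPKM, with a median difference of 0.51 against -0.11 for all genes. KRT7, a keratin of simple and glandular epithelium, was at 0.43 and 0.48 FPKM against 92.3 and 95.4 FPKM. KRT13, the keratin of the differentiating layers of esophageal epithelium, was at 0.18 and 0.30 FPKM against 38.1 and 38.7 FPKM. KRT17, a keratin of stressed and transformed squamous cells, was at 2.34 and 2.93 FPKM against 33.4 and 32.5 FPKM. KRT6A, KRT6B and KRT19 were the other higher ones, and KRT6A and KRT6B are close paralogs. KRT14, the partner of KRT5, was at 18.6 and 20.7 FPKM against 27.0 and 26.7 FPKM, short of 2-fold.

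Transcription factors and adhesion genes of squamous cells were mostly within 2-fold. Among 21 kept factors, 4 (19.05%, against 6.41% of all genes) were higher and 0 lower, among them KLF5 and the epithelial ETS factors EHF and ELF3. Of the 4, 1 (EHF) had an EZH2-pair mean under 1 FPKM. EHF was at 0.13 and 0.12 FPKM against 13.1 and 12.4 FPKM, and KLF5 at 16.7 and 15.0 FPKM against 41.3 and 40.5 FPKM. SOX2 was at 4.92 and 4.77 FPKM against 7.64 and 7.93 FPKM. Of 26 adhesion genes, 2 (PERP and LAMA3) were higher and 1 (PKP1) lower, shares of 7.69% and 3.85% that are near those of all genes. DSG3, the desmoglein of squamous cells, was at 15.5 and 13.8 FPKM against 20.97 and 20.4 FPKM, and ITGB4, the hemidesmosome integrin, at 54.7 and 59.0 FPKM against 52.9 and 53.9 FPKM.

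Terminal differentiation genes were low in both pairs: 22 of 31 were under 1 FPKM in all 4 libraries. SPRR1B, a cornified envelope protein, was at 0.13, 0.14, 0.29 and 0.36 FPKM, and involucrin (IVL) at 0.17 FPKM at most. SERPINB3 and its near copy SERPINB4 were higher in the LAT1 pair, as was TGM1, the transglutaminase that cross-links the envelope, at 0.93 and 0.92 FPKM against 7.33 and 7.16 FPKM. KLK5, a desquamation protease, was lower, at 108 and 121 FPKM against 32.1 and 34.0 FPKM. The list thus held both directions among its 9 kept members, 3 higher (33.3%, against 6.41% of all genes) and 2 lower (22.2%, against 3.45%). All 3 higher members had an EZH2-pair mean under 1 FPKM.

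NRF2 targets and glutathione genes had 33 kept members, of which 13 (against 6.41% of all genes) were higher and 2 lower, with a median difference of 0.57; 6 of the 13 had an EZH2-pair mean under 1 FPKM. Aldo-keto reductases led, with AKR1C1, AKR1C2 and AKR1B10. AKR1C1 and AKR1C2 are close paralogs, and the family is related in sequence, so the single values of these genes are uncertain. GPX2, a glutathione peroxidase of epithelia, was at 0.85 and 1.07 FPKM against 142 and 133 FPKM. PGD, which makes NADPH in the pentose phosphate pathway, was at 74.6 and 75.6 FPKM against 165 and 167 FPKM. ME1, malic enzyme, was at 8.93 and 8.77 FPKM against 43.1 and 44.6 FPKM.

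Other members of the NRF2 list were closer. NQO1, the quinone reductase used as a standard readout of NRF2, was at 136 and 137 FPKM against 185 and 184 FPKM. GCLM, a subunit of the enzyme that starts glutathione synthesis, was at 25.2 and 21.4 FPKM against 33.9 and 33.9 FPKM, and HMOX1, heme oxygenase, at 8.43 and 8.41 FPKM against 9.78 and 8.95 FPKM. These were higher in both LAT1 libraries but short of 2-fold. The metallothioneins MT2A and MT1E went the other way, MT2A at 232 and 275 FPKM against 89.7 and 90.8 FPKM. So did GPX1, at 198 and 219 FPKM against 110 and 109 FPKM, and GSS, at 57.5 and 60.9 FPKM against 38.7 and 38.7 FPKM. TXN was near equal, at 478 and 516 FPKM against 504 and 505 FPKM. Of the 33 kept members, 21 were higher in all 6 libraries of the LAT1 table than in any of the EZH2 table, and 5 lower. The shares of all genes were 20.5% and 29.7%. NFE2L2, which encodes NRF2, was at 31.04 and 29.4 FPKM against 35.1 and 34.4 FPKM.

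The promoter windows of the list were searched for TGACNNNGC on both strands, the core of the antioxidant response element that NRF2 binds. It was in 8 of 22 kept members with a window (36.4%), in 3 of 9 higher members with a window (33.3%), and in 11.1% of all 27305 RefSeq windows of the same length. The higher members with a match were PGD, ME1 and GPX2. Those of GPX2 and ME1 are shown, 250 bases before the start as above, with the match in capitals.
GPX2, chr14:64942746-64942995, minus strand: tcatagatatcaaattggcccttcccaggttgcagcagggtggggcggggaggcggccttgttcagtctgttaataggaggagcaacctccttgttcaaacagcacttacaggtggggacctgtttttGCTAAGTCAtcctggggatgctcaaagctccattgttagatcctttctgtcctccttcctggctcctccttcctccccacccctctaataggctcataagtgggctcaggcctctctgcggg
ME1, chr6:83431052-83431301, minus strand: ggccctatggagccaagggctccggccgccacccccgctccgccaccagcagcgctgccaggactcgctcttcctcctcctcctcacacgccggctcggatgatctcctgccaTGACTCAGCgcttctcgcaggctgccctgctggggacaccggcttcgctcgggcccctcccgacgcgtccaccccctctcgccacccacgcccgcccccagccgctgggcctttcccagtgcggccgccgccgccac
In GPX2 the match reads on the opposite strand. A match is a stretch of letters, not a measured site, and the windows of AKR1C1, AKR1C2 and FTL held none.

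Inflammatory mediators and NF-kB targets had the largest median among lists with 10 or more kept genes, 1.15. Of 24 kept, 14 (58.3%, against 6.41% of all genes) were higher and 0 lower, and 7 of the 14, CXCL1 and C3 among them, had an EZH2-pair mean under 1 FPKM. CXCL1, a neutrophil chemokine, was listed at 0 and 0 FPKM against 23.99 and 22.97 FPKM, and IL8 (the file's name for CXCL8) was at 1.05 and 1.14 FPKM against 38.9 and 35.1 FPKM. C3, a complement protein, was at 0.33 and 0.30 FPKM against 16.3 and 16.3 FPKM, and IL1B at 5.03 and 5.10 FPKM against 21.6 and 21.2 FPKM. IL18 and NFKB2 were not among them, at 37.9 and 36.7 FPKM against 25.9 and 25.6 FPKM and at 20.01 and 21.7 FPKM against 18.7 and 19.6 FPKM.

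Of 16 kept antigen presentation genes, 5 (31.2%, against 6.41% of all genes) were higher and 1 (6.25%, against 3.45%) lower, with a median difference of 0.69. HLA-B was at 2.70 and 2.94 FPKM against 32.6 and 31.1 FPKM and ERAP2, which trims peptides for it, at 4.37 and 4.30 FPKM against 29.3 and 29.0 FPKM. HLA genes are polymorphic and alike in sequence, which limits how reads are shared among them. CD274, which encodes PD-L1, was the lower one, at 9.15 and 8.32 FPKM against 2.60 and 2.86 FPKM. Of 28 kept interferon-stimulated genes, 7 (25%) were higher and 3 (10.7%) lower, against 6.41% and 3.45% of all genes, and 3 of the 7 had an EZH2-pair mean under 1 FPKM. IFITM1 was at 0.15 and 0.12 FPKM against 21.2 and 17.5 FPKM, whereas ISG15 was at 36.8 and 43.6 FPKM against 15.2 and 14.5 FPKM.

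Growth regulators that are often altered in this cancer lay on both sides. Of 26 kept, 3 (11.5%, against 6.41% of all genes) were higher and 4 (15.4%, against 3.45%) lower. Of the 4, 1 had a LAT1-pair mean under 1 FPKM. CDKN2B, which lies beside CDKN2A, was at 2.81 and 3.15 FPKM in the EZH2 pair and 0.80 and 0.71 FPKM in the LAT1 pair. CDKN1A, the inhibitor p21, was within 2-fold, at 35.5 and 37.2 FPKM against 25.2 and 24.2 FPKM. NOTCH3, FAT1 and CCNE1 were higher in the LAT1 pair. FAT1, a giant cadherin, was at 10.8 and 9.40 FPKM against 29.9 and 31.5 FPKM, and NOTCH3, a receptor of squamous differentiation, at 3.55 and 3.81 FPKM against 14.5 and 13.6 FPKM. Of 25 kept growth factor receptors and ligands, 5 (20%, against 6.41% of all genes) were higher and 2 (8%, against 3.45%) lower. An EZH2-pair mean under 1 FPKM was found for 4 of the 5. AXL, a receptor kinase, was at 89.7 and 88.9 FPKM against 42.1 and 43.7 FPKM, and IGF1R at 6.53 and 6.28 FPKM against 20.9 and 20.6 FPKM.

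Epithelial and mesenchymal genes had 25 kept members, 5 higher (20%, against 6.41% of all genes) and 4 lower (16.0%, against 3.45%), and 4 of the 5 had an EZH2-pair mean under 1 FPKM. CDH2, N-cadherin, was at 0.01 and 0.01 FPKM against 9.56 and 9.66 FPKM, and FN1, fibronectin, at 1.25 and 1.10 FPKM against 12.1 and 12.6 FPKM. CDH1, E-cadherin, was at 66.6 and 64.2 FPKM against 55.6 and 54.6 FPKM. MMP14, a matrix metalloprotease, was lower at 45.7 and 48.4 FPKM against 12.5 and 13.2 FPKM, and so was PLAU, urokinase, at 51.3 and 54.5 FPKM against 24.5 and 23.7 FPKM. TWIST1 was lower, at 3.82 and 4.05 FPKM against 1.3 and 0.99 FPKM, and TWIST2 higher, listed at 0 and 0 FPKM against 2.50 and 2.08 FPKM. Mesenchymal members therefore lay on both sides.

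The sterol and glycolysis lists had small median differences, 0.06 and 0.096, beside shares of higher genes above that of all genes. Sterol and fatty acid synthesis had 6 of 34 higher (17.6%, against 6.41% of all genes) and 0 lower, and 4 of the 6 had an EZH2-pair mean under 1 FPKM. Beside DHCR7 these included ACAT2, a thiolase, at 0.08 and 0.06 FPKM against 17.7 and 18.99 FPKM. SCD, the fatty acid desaturase, was at 127, 119, 127 and 123 FPKM. In hypoxia and glycolysis 4 of 32 were higher (12.5%, against 6.41% of all genes), 3 of them from under 1 FPKM. EGLN3, an oxygen-sensing hydroxylase, was among the 3, at 0 and 0.01 FPKM against 14.5 and 12.6 FPKM. BNIP3, a mitophagy receptor, was higher but not from under 1 FPKM, at 2.27 and 2.19 FPKM against 39.1 and 36.3 FPKM. Glucose carrier SLC2A3 was lower, at 7.71 and 7.58 FPKM against 1.96 and 1.95 FPKM.

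In amino acid metabolism, the cystine carrier SLC7A11 was at 3.13 and 2.20 FPKM against 17.3 and 17.6 FPKM, and SLC6A15, a neutral amino acid carrier, was listed at 0 and 0 FPKM against 5.60 and 5.89 FPKM. Of 19 kept amino acid carriers, 2 (10.5%, against 6.41% of all genes) were higher and 1 (5.26%, against 3.45%) lower. An EZH2-pair mean under 1 FPKM was found for 1 of the 2. Of 36 kept amino acid response genes, 8 (22.2%) were higher and 1 (2.78%) lower. Among the 8, 2 had an EZH2-pair mean under 1 FPKM. ATF4, the factor of the amino acid response, was at 122, 128, 117 and 112 FPKM. All 20 cytosolic aminoacyl-tRNA synthetases were within 2-fold, with a median difference of -0.45. RARS was at 165 and 165 FPKM against 91.5 and 94.98 FPKM. In the methionine cycle and polyamine list only TYMS was called of 28, at 15.6 and 15.6 FPKM against 66.0 and 70.9 FPKM, while MAT2A, which makes the methyl donor S-adenosylmethionine, was at 68.3, 69.6, 66.3 and 67.5 FPKM.

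Cell cycle and Polycomb lists were near the all-gene shares or below them. Of 49 DNA replication genes 2 (4.08%, against 6.41% of all genes) were higher (TYMS and CCNE1) and 0 lower, with a median difference of -0.00; its sign turned with rescaling, quantile normalization or centring, where it reached 0.10. Of 47 mitotic genes 2 (4.26%) were higher (NDC80 and DLGAP5), with a median of -0.06 that became 0.01 under quantile normalization and 0.04 when centred. PCNA, the replication clamp, was at 198 and 198 FPKM against 178 and 179 FPKM. Of 35 Polycomb subunits only C17orf96 (EPOP in current naming) was called, at 1.40 and 1.72 FPKM against 6.27 and 7.18 FPKM. SUZ12, the partner of EZH2, was at 14.2 and 12.4 FPKM against 22.9 and 22.3 FPKM.

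Ribosomal protein transcripts leaned towards the EZH2 pair, and mitochondrial ones were mixed. Of 77 kept ribosomal protein genes 0 were higher and 7 (9.09%, against 3.45% of all genes) lower, with a median of -0.41. Of the 7, 1 (RPL17) had a LAT1-pair mean under 1 FPKM. Of the 77, 55 were lower in all 6 libraries of the LAT1 table than in any of the EZH2 table, as were 29.7% of all genes. RPL29 was at 419 and 473 FPKM against 192 and 199 FPKM. MT-ATP6, a subunit of mitochondrial ATP synthase, was at 1918 and 1973 FPKM against 987 and 1009 FPKM, while MT-ND1, a complex I subunit, was at 647 and 651 FPKM against 928 and 957 FPKM. The nuclear copy of MT-ATP6, MTATP6P1, was at 478 and 497 FPKM against 726 and 739 FPKM. How reads were divided between these copies is not stated. MT-RNR1, the small mitochondrial ribosomal RNA, was at 1356 and 1536 FPKM against 531 and 507 FPKM, and RNA18S5 at 1497 and 1845 FPKM against 4949 and 2133 FPKM, a spread within the LAT1 pair above 2-fold. The last 2 were named after their values were seen.

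Of 23 cancer-testis genes, silent in most adult tissues, 18 were under 1 FPKM in all 4 libraries and 5 were kept. MAGEA4, MAGEA6 and MAGEA12, which are alike in sequence, were lower and DDX43 higher, too few genes for a direction of the group (3.45% of all genes were lower). MAGEA6 was at 80.8 and 83.5 FPKM against 23.6 and 21.7 FPKM. MAGEA3, its near copy, was at 65.8 and 67.9 FPKM against 46.1 and 47.0 FPKM, and reads of these copies may be shared. DDX43 was listed at 0 and 0 FPKM against 3.57 and 3.57 FPKM.

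The chromosomal neighbours of CTTN and DHCR7 were looked up after the values of these 2 genes were seen, so the following is a description of that stretch. In the order of genes on RefSeq's chromosome 11, CCND1 (cyclin D1) was at 113 and 106 FPKM against 243 and 255 FPKM, PPFIA1, an adaptor of cell adhesions, at 10.8 and 10.4 FPKM against 58.3 and 60.1 FPKM, and CTTN (ENSG00000085733), the actin regulator cortactin, at 38.0 and 38.8 FPKM against 233 and 233 FPKM. Their neighbours ORAOV1 and FADD were at 3.90 and 4.03 FPKM against 8.20 and 8.15 FPKM and at 7.16 and 7.64 FPKM against 13.6 and 12.4 FPKM. NADSYN1, which makes NAD, lies next to DHCR7 and was at 3.32 and 3.59 FPKM against 31.5 and 30.1 FPKM, 8.91-fold. Beyond NADSYN1 the direction turned: RNF121 was at 12.4 and 12.8 FPKM against 8.73 and 9.39 FPKM, and LAMTOR1 at 32.5 and 34.5 FPKM against 19.6 and 20.1 FPKM. MYEOV, between TPCN2 and CCND1, was at 3.06, 2.88, 2.60 and 3.04 FPKM, and SHANK2, between CTTN and DHCR7, at 1.61 and 1.33 FPKM against 0.75 and 0.76 FPKM, so the stretch was not uniform.

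Medians were also taken over 31 neighbouring protein-coding genes. Relative to the all-gene median they ranged from -0.60 to 1.05 between the pairs, over 9637 overlapping windows. Between the 2 libraries of a pair they ranged from -0.182 to 0.192 (EZH2 pair) and from -0.0792 to 0.0496 (LAT1 pair). On chromosome 14, 30 of the 31 genes from MAP4K5 to EXOC5 were above the all-gene median, with 14 called higher and a median of 1.05. On chromosome 8, 29 of 31 from TRPS1 to TRIB1 were above it, with a median of 1.05, and on chromosome 18 all 31 from ESCO1 to ZNF24, with a median of 0.90. The lowest medians were -0.60 on chromosome 11 between SLC37A2 and THYN1 and -0.55 on chromosome 10 between KIN and STAM, where 30 of 31 genes lay below the all-gene median. These windows were picked as the extremes, so their values are descriptions, and whether differences follow gene order was not tested.

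**Figure D5:**
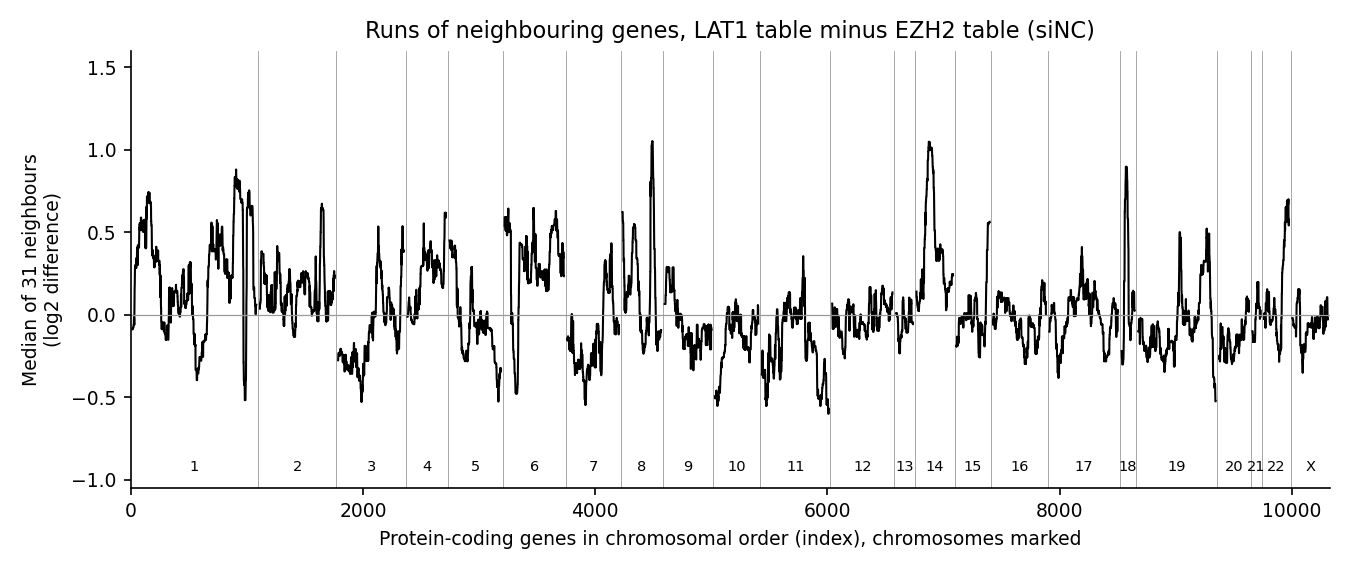
Median log2 difference of 31 neighbouring protein-coding genes along the gene order of chromosomes 1 to 22 and X, as LAT1 pair minus EZH2 pair relative to the all-gene median. The line peaks at 1.05 on chromosomes 8 and 14 and falls to -0.60 on chromosome 11.

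The spread of the difference between the pairs was alike up to 100 FPKM and wider above. The SD of the difference was 0.764 for genes of 1 to 5 FPKM, 0.741 for 5 to 20, 0.76 for 20 to 100 and 0.922 above 100 FPKM. The SD within the pairs fell from 0.226 and 0.243 in the lowest class to 0.0968 and 0.115 in the highest. By class of gene, 6.53% of 10327 protein-coding genes were higher and 2.75% lower. Of 54 small nucleolar RNAs 0 were higher and 13 (24.1%) lower, but their SD within pairs, 0.792 and 0.798, was near the SD between the pairs for all genes.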

How the data were processed

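Members, lists and limits were chosen with earlier results of these data known. The authors' deposited FPKM tables (unit read from the values; the header names none) hold 1 column per library and were normalized separately. Per the submitters' processing notes, the tools were STAR, Trim Galore, Bowtie, Bowtie2, SEACR and Picard with builds hg38 and hg19, none with a stated role. The counting program and strand setting are not given in the sources used here. The siNC libraries of the LAT1 table share a title number, and their descriptions were followed.

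Values were analysed as log2(FPKM + 1) with Python 3.11.15, pandas 2.3.3 and numpy 2.4.6. Genes averaging 1 FPKM or higher in the 4 siNC libraries were kept. Named genes were EZH2, SLC7A5, SLC3A2, the 20 most abundant, the 12 largest differences per direction with a mean log2 level of 2 or higher, cell type markers, and per list up to 5 of the highest and 5 of the largest differences; others were named after their values were seen. Gene groups were 37 lists. RefSeq (GRCh38.p14) gave class and order for 11162 of 11724 kept genes. Depth is an estimate from low values of microRNA genes, by the share that were whole reads within 0.12 reads. The best depth was taken within the lowest range of depths whose share came near the highest. Its share was 93.8% to 95.6%. The calling procedure was tested on simulated data. CUT&Tag samples were not analysed here, and some genes are not reported here.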

Additional observations from a re-analysis of the deposited data

How the results depend on the processing

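No paired analysis was possible because the pairs come from tables normalized apart and no test was run between them. The counts of 752 higher and 404 lower genes became 359 and 235 with a filter at 5 FPKM, 295 and 10 with a minimum log2 difference of 2, and 988 and 769 with a pseudocount of 0.1, a share of 56.2% higher in place of 65.1%. Within pairs, 36 and 52 genes became 97 and 134 with a pseudocount of 0.1 and 0 and 7 with a filter at 5 FPKM. Stricter filters and limits leave fewer genes to count, and a smaller pseudocount widens differences of low genes. Rescaling, quantile normalization, centring, no filter and leaving out each library in turn (670 to 866 higher, 387 to 443 lower) kept both counts within 1.5 times. No called gene among the 46 named in the lists of largest differences, targets and most abundant genes changed sign under the 8 scalings, pseudocounts or omissions. Low genes limit the rest: at few reads an FPKM near 0 is coarse.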
